A study of Gallus gallus with 21 samples.

Results

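WNT ligands, their receptors and their antagonists were followed in the retina of White Leghorn chickens wearing a lens of -10 dioptres over the eye. Members were genes whose symbol starts with WNT, FZD, SFRP, RSPO, DKK or DACT followed by a digit, with DKK3 left out, and the named genes LRP5, LRP6, WIF1, FRZB, AXIN1, AXIN2, ROR1 and ROR2. The rule found 39 members among 18631 listed genes. Wild-type chicks received the lens at 3 days of age, and retinas were taken after 1, 3 or 6 days of lens wear (day 1, day 3 and day 6 below), with 7 libraries for each duration. Every retina wore a lens and age rose with lens wear, so a difference between days cannot be told apart from growth of the chick.

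A minus lens places the image behind the retina, and a young eye answers by growing longer, which leaves it short-sighted. WNT proteins are secreted lipid-modified ligands that bind Frizzled receptors (FZD). With the co-receptors LRP5 or LRP6 they stop the AXIN and APC complex from breaking down beta-catenin, and with ROR receptors they act on cell polarity and movement without beta-catenin. SFRP, FRZB and WIF1 proteins bind the ligands outside the cell, DKK proteins block LRP5 and LRP6, RSPO proteins keep receptors at the surface, and DACT proteins bind Dishevelled inside the cell. In the vertebrate eye the pathway is known for patterning the retinal margin and for its activity in Müller glia.

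Levels are given in CPM, read counts scaled to a library's total. The most frequent of a library's low CPM values was taken as the step of a single read. By that choice libraries held an estimated 30.8 to 49.3 M reads, of which 9.94 to 15.3 M fell on listed genes. CPM is not corrected for gene length, so levels are compared between days and not between genes. Whether the 7 retinas of a day belong to 7 different chicks is not stated, so the p-values reflect variation among these samples, which may in part be technical. Fewer cells of a type and less RNA per cell cannot be told apart in whole retina.

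Markers of retinal cells were abundant: summed over 8 Müller glia genes they came to 877 to 1203 CPM, and over 7 photoreceptor genes to 1042 to 1939 CPM. Among markers of other tissue, 8 genes of the retinal pigment epithelium summed to 2.38 to 10.5 CPM and 7 of scleral and choroidal fibroblasts to 7.61 to 14.6 CPM. Summed over 6 blood vessel genes, markers came to 51.5 to 63.2 CPM on day 1. They came to 42.4 to 58.1 CPM on day 3 and 46.6 to 66.9 CPM on day 6. Nearly all of this was KDR, at means of 35.9, 31.7 and 38.7 CPM, and PECAM1, at 18.8, 15.9 and 17.1 CPM. CDH5, TEK, ACTA2 and RGS5 each averaged below 1 CPM on every day. Of the 2 vessel genes tested, KDR and PECAM1, 0 passed between day 6 and day 1 (limma, 0 at an unadjusted p under 0.05). The red cell gene SLC4A1 did not exceed 0.0588 CPM. Between day 6 and day 1, where 19.8% of all tested genes were higher and 4.46% lower, 4 of 7 tested photoreceptor markers were higher and 1 lower, and 1 of 5 bipolar cell markers was higher. In that comparison 2 of 6 tested Müller glia markers and 2 of 8 amacrine cell markers were lower. Between day 6 and day 3, 19.4% of all tested genes were higher and 3.44% lower. Of 7 tested photoreceptor markers 2 were then higher and 1 lower. Higher as well were 2 of 7 ganglion cell, 1 of 5 horizontal cell, 1 of 5 bipolar cell and 1 of 6 Müller glia markers. For amacrine cells 0 of 8 passed by limma (2 at an unadjusted p under 0.05). The part of these cell types in the member results was not tested. Transcripts of the W chromosome, which only hens carry, were present in 4, 1 and 5 of 7 libraries on days 1, 3 and 6, with HINTW at 101 to 147 CPM in those and at 0.0243 to 0.598 CPM in the others. The labels do not give sex. ROR2 is the only member assigned to the Z chromosome. Sample titles also carry a code number, split here into a lower and a higher run within each day at the widest gap. The gap lay between 4 and 12 on day 1 and between 29 and 36 on day 3. On day 6 it lay between 48 and 51, with the next number at 53, so these runs are less distinct. Results by code number rest on this choice of cut. The higher run held 3, 3 and 4 of 7 libraries on days 1, 3 and 6. A code letter, R or L, follows the number, with R in 4, 4 and 3 of 7 libraries on days 1, 3 and 6. What the numbers and letters stand for is not given.

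Of the 39 members, 17 had a mean of at least 1 CPM over all libraries and entered the test, among 11072 genes. They were 2 of 11 ligands (WNT5A, WNT11), 5 of 10 Frizzled receptors (FZD1, FZD3, FZD5, FZD6, FZD9), 3 of 4 co-receptors and ROR receptors (LRP5, LRP6, ROR1), 1 of 4 R-spondins (RSPO1), 2 of 6 secreted antagonists (SFRP1, WIF1) and all 4 intracellular regulators. Changes are differences of mean log2(CPM + 1), which understates the change of low genes, and adjusted p-values are from limma with Benjamini-Hochberg adjustment over all tested genes, with a threshold of 0.05.

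Between day 3 and day 1, 0 of 17 tested members changed, where 3.31% of all tested genes did, and 1 member (WNT5A) had an unadjusted p under 0.05. Day 6 stood further apart. Against day 3, 3 members were higher (WNT5A, FZD5, AXIN1) and 0 lower, while 22.8% of all tested genes changed, 19.4% upward and 3.44% downward. Against day 1, 4 members were higher (FZD5, LRP5, LRP6, AXIN1) and 2 lower (DACT1, WIF1), with a background of 24.3%, of which 19.8% of genes were higher and 4.46% lower. The F test over the 3 days passed for 6 members (WNT5A, FZD5, LRP5, LRP6, DACT1, AXIN1), against 29.7% of all tested genes. The upward counts over 17 members were near these backgrounds, and nothing particular to the members is read from them.

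The median change of the 17 members was -0.09 between day 3 and day 1, 0.11 between day 6 and day 3 and 0.04 between day 6 and day 1, beside 0.00, 0.08 and 0.08 over all tested genes. The listed genes took 31.7 to 33.3% of a library's CPM total on day 6, 30.3 to 32.2% on day 3 and 30.7 to 31.2% on day 1. Rescaling each library by the median ratio of its genes evens out the directions over all genes largely by construction. It gave 946 higher and 874 lower between day 6 and day 3, and 936 higher and 989 lower between day 6 and day 1. With that scaling 1 member was higher (FZD5) and 1 lower (DACT1) between day 6 and day 3, and 1 was higher (FZD5) and 2 lower (DACT1, WIF1) between day 6 and day 1. The 3 days share libraries across these comparisons, so the comparisons are not independent.

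**Figure D1:**
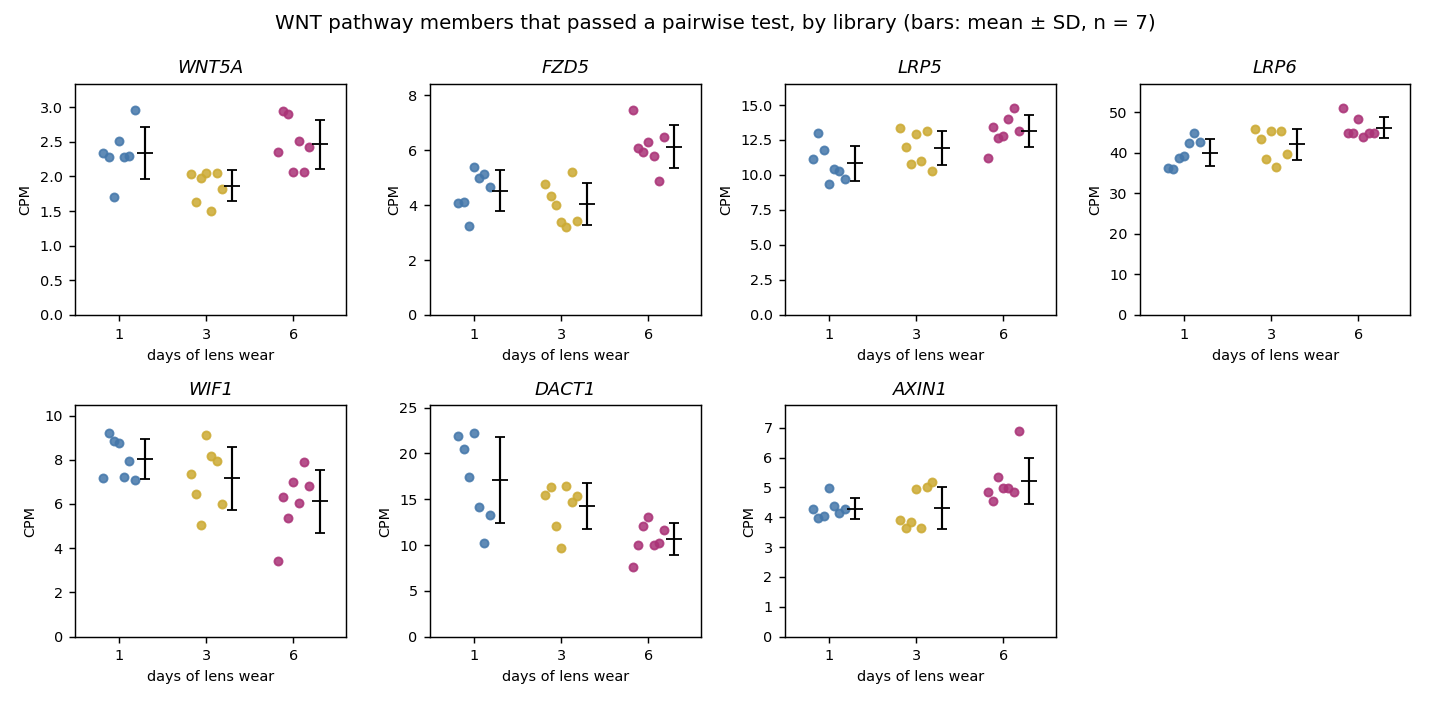
CPM of the 7 members that passed a pairwise test, by days of lens wear; points are libraries, and bars give the mean ± SD of 7 libraries a day. WNT5A and FZD5 had their lowest mean on day 3 and their highest on day 6, LRP5, LRP6 and AXIN1 stood highest on day 6, and WIF1 and DACT1 were lowest on day 6.

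Among the ligands, WNT5A, the best known ligand of the beta-catenin-independent branch, was lowest on day 3. Its lowest, median and highest libraries stood at 1.70, 2.30 and 2.96 CPM on day 1, at 1.498, 1.98 and 2.04 CPM on day 3 and at 2.06, 2.42 and 2.94 CPM on day 6. All 7 day 6 libraries thus lay above every day 3 library, by a narrow margin at the edge, while day 6 and day 1 overlapped widely; 5.05% of all tested genes had day 6 libraries wholly above those of day 3. The log2 change was 0.27 ± 0.08 (SE) between day 6 and day 3 (adjusted p = 0.0144), -0.22 ± 0.08 between day 3 and day 1 (adjusted p = 0.132) and 0.06 ± 0.08 between day 6 and day 1 (adjusted p = 0.629). The day 6 to day 3 difference was 0.21 with an adjusted p of 0.0735 under median-ratio scaling, and without day 1 replicate 3 the fall between day 3 and day 1 passed as well. WNT5A is listed at chr12:8301506-8315220 on the minus strand of GRCg6a, the build of all coordinates here.

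WNT11, a ligand that also acts mainly without beta-catenin, averaged 1.12 ± 0.292, 1.23 ± 0.118 and 1.13 ± 0.333 CPM (SD, n = 7) on days 1, 3 and 6, and did not pass in any comparison. The other 9 ligands, WNT1, WNT4, WNT5B, WNT7A, WNT7B, WNT9A, WNT10A, WNT11B and WNT16, were below the filter. WNT10A held 10 to 36 estimated reads a library. WNT7B and WNT11B had a median of 0 CPM on each day. WNT1, the founding member of the family, had a median of 0 CPM on days 1 and 3 and of 0.0839 CPM on day 6, where its highest library held 8 estimated reads.

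Among the Frizzled receptors FZD5 rose. FZD5 is known from work in frogs for its part in setting the neural potential of retinal progenitors, and it is expressed in the vertebrate neural retina. Its lowest, median and highest libraries stood at 3.25, 4.66 and 5.39 CPM on day 1, at 3.22, 3.99 and 5.22 CPM on day 3 and at 4.86, 6.10 and 7.45 CPM on day 6. All 7 day 6 libraries lay above the mean of either earlier day, although the lowest of them fell within the range of both. Such counts against a mean, here and below, are description only, since their share over all genes is not given. They came to 7 of 7 without a pass too, as for RSPO1 (lower, day 6 against day 1) and LRP6 (higher, day 6 against day 3). Mean CPM of FZD5 on day 6 was 1.51 times that of day 3 and 1.36 times that of day 1. The log2 change was 0.50 ± 0.10 between day 6 and day 3 (adjusted p = 0.00155) and 0.37 ± 0.10 between day 6 and day 1 (adjusted p = 0.0100), and it passed in both comparisons under median-ratio scaling too, at 0.43 (adjusted p = 0.00685) and 0.30 (adjusted p = 0.0456).

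FZD5, at chr7:12129936-12133931 on the plus strand, lies inside PLEKHM3 on the same strand, so reads of the longer gene could be counted for it. PLEKHM3 averaged 75.4 ± 4.90 CPM on day 6, 73.0 ± 4.03 on day 3 and 67.9 ± 4.29 on day 1 (SD, n = 7). Its change was 0.04 ± 0.05 between day 6 and day 3 (adjusted p = 0.575) and 0.15 ± 0.05 between day 6 and day 1 (adjusted p = 0.0450).

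FZD3, which works with the planar polarity proteins in axon growth, averaged 16.6 ± 1.11, 17.1 ± 2.34 and 17.8 ± 1.85 CPM on days 1, 3 and 6 and did not pass. FZD6, another receptor tied to planar polarity, was the most variable tested member on day 1, with a coefficient of variation of 33.4%. Its libraries ranged from 5.07 to 12.7 CPM on day 1, from 6.12 to 11.8 on day 3 and from 4.71 to 8.99 on day 6, and its change of -0.34 ± 0.17 between day 6 and day 3 did not pass (unadjusted p = 0.0490, adjusted p = 0.132). FZD1 averaged 1.91 ± 0.515, 1.72 ± 0.306 and 1.95 ± 0.417 CPM, and FZD9 1.35 ± 0.344, 1.41 ± 0.264 and 1.51 ± 0.263 CPM, on days 1, 3 and 6, and neither passed. Below the filter, FZD8 averaged 0.951, 0.779 and 0.979 CPM on days 1, 3 and 6. FZD10 did not exceed 9 estimated reads in any library, and FZD2 did not exceed 3.

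Both co-receptors of the beta-catenin branch rose between day 1 and day 6 on CPM as deposited, but neither passed under median-ratio scaling. LRP5, which in humans and mice is needed for retinal vessels, had its lowest, median and highest libraries at 9.36, 10.4 and 13.03 CPM on day 1, at 10.3, 11.97 and 13.4 CPM on day 3 and at 11.2, 13.1 and 14.8 CPM on day 6. All 7 day 6 libraries were above the day 1 mean, and the ranges overlapped. The change between day 6 and day 1 was 0.26 ± 0.07 (adjusted p = 0.0139), and both steps, day 3 minus day 1 and day 6 minus day 3, amounted to 0.13.

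LRP6, the closest relative of LRP5, stood at 36.02, 39.2 and 44.8 CPM on day 1, at 36.6, 43.3 and 45.9 CPM on day 3 and at 44.0, 45.0 and 51.1 CPM on day 6 in its lowest, median and highest libraries. It was the steadiest tested member on day 6, with a coefficient of variation of 5.62%, and 7 of 7 day 6 libraries lay above the day 1 mean. The change between day 6 and day 1 was 0.20 ± 0.06 (adjusted p = 0.0222). Under median-ratio scaling neither co-receptor passed, with LRP5 at 0.18 (adjusted p = 0.0892) and LRP6 at 0.12 (adjusted p = 0.269), and LRP6 missed the threshold without day 1 replicate 2 (adjusted p = 0.0521). LRP5 is listed at chr5:16539825-16667859 on the plus strand and LRP6 at chr1:71652621-71788149 on the minus strand.

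ROR1, a receptor tyrosine kinase for WNT5A, averaged 1.246 ± 0.272, 1.05 ± 0.166 and 1.30 ± 0.279 CPM on days 1, 3 and 6 (SD, n = 7). Its mean was lowest on day 3, as were those of WNT5A, FZD1, FZD5, SFRP1 and DACT2 among tested members. The change of ROR1 between day 6 and day 3, 0.16 ± 0.08, did not pass (limma, adjusted p = 0.163). ROR2 was below the filter at means of 0.849, 0.755 and 0.901 CPM.

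**Figure D2:**
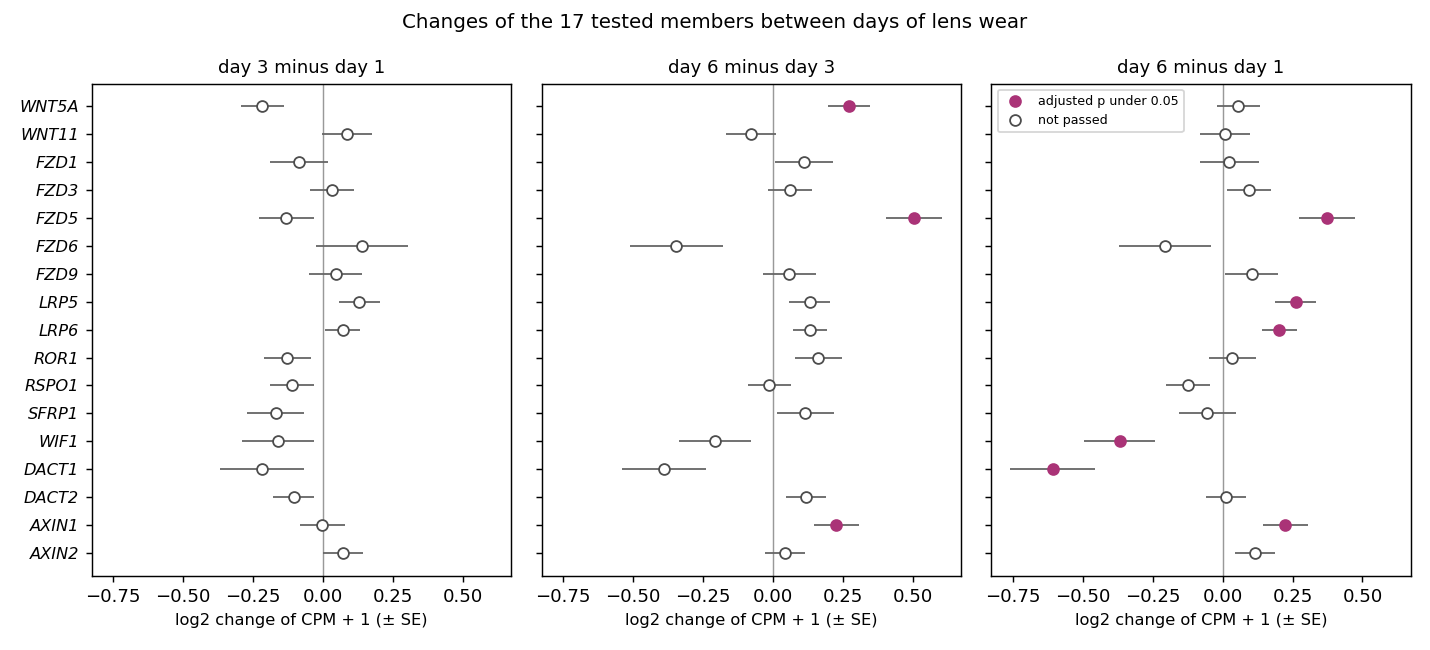
Log2 change of CPM + 1 with its SE for the 17 tested members in the 3 pairwise comparisons; filled points had an adjusted p under 0.05. No member is filled between day 3 and day 1, 3 are filled to the right of 0 between day 6 and day 3, and 4 to the right and 2 to the left between day 6 and day 1.

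Among the secreted regulators WIF1 fell. WIF1, an inhibitor that binds WNT proteins outside the cell, had its lowest, median and highest libraries at 7.09, 7.94 and 9.22 CPM on day 1, at 5.03, 7.36 and 9.13 CPM on day 3 and at 3.41, 6.29 and 7.89 CPM on day 6. All 7 day 6 libraries were below the day 1 mean of 8.04 CPM, and the ranges overlapped. The change between day 6 and day 1 was -0.37 ± 0.13 (adjusted p = 0.0398), while the F test over 3 days did not pass (adjusted p = 0.0803). Leaving out day 1 replicate 2, 3, 4 or 6 or day 6 replicate 1, 3 or 5 ended the call, with adjusted p up to 0.0811, and under median-ratio scaling the fall was -0.45 (adjusted p = 0.0158). WIF1 is listed at chr1:34002232-34044012 on the minus strand.

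SFRP1, a decoy that binds WNT proteins with a Frizzled-like domain, averaged 29.7 ± 4.77, 26.2 ± 3.60 and 28.5 ± 3.74 CPM on days 1, 3 and 6 and did not pass. Its libraries overlapped throughout, at 24.3 to 35.96 CPM on day 1, 20.9 to 30.7 on day 3 and 24.1 to 35.2 on day 6. RSPO1, the R-spondin that entered the test, averaged 1.26 ± 0.231, 1.10 ± 0.269 and 1.07 ± 0.123 CPM and did not pass. Below the filter, DKK2, an LRP5 and LRP6 ligand, averaged 0.787, 0.633 and 0.559 CPM, FRZB 0.573, 0.743 and 0.856 CPM and SFRP4 0.404, 0.519 and 0.388 CPM on days 1, 3 and 6. RSPO2 averaged 0.422, 0.527 and 0.525 CPM, and RSPO3 did not exceed 2 estimated reads in any library.

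Inside the cell, DACT1 fell and AXIN1 rose. DACT1 (Dapper), a Dishevelled-binding protein that can dampen or relay the signal, had its lowest, median and highest libraries at 10.3, 17.4 and 22.2 CPM on day 1, at 9.72, 15.3 and 16.5 CPM on day 3 and at 7.60, 10.2 and 13.02 CPM on day 6. All 7 day 6 libraries lay below the mean of day 1 and below that of day 3. All 7 day 3 libraries lay below the day 1 mean as well, although that change did not pass. Mean CPM on day 6 was 0.622 times that of day 1. The log2 change was -0.61 ± 0.15 between day 6 and day 1 (adjusted p = 0.00671), -0.39 ± 0.15 between day 6 and day 3 (adjusted p = 0.0651) and -0.22 ± 0.15 between day 3 and day 1 (adjusted p = 0.471). It passed with each of the 21 libraries left out in turn, and under median-ratio scaling it was -0.69 (adjusted p = 0.00235). DACT1 is listed at chr5:55284930-55301586 on the minus strand.

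The fall of DACT1 differed between the runs of code numbers. On day 1, 3 libraries with higher code numbers stood at 10.3 to 14.2 CPM (12.6 ± 2.03, SD) and 4 with lower code numbers at 17.4 to 22.2 CPM (20.5 ± 2.19), with no overlap. LRP6 did not overlap on day 1 either, at 42.5 to 44.8 CPM (higher) and 36.02 to 39.2 CPM (lower), nor did ROR2 and FZD10 below the filter. The share of all genes without such overlap is not given, so nothing particular to DACT1 is read from it. For DACT1 the day 1 difference, higher minus lower, was -0.67 on the log2 scale (limma, adjusted p = 0.0345), where 3.18% of all tested genes differed. On day 6 the means were 11.2 ± 1.41 CPM in 4 libraries with higher code numbers and 9.89 ± 2.22 CPM in 3 with lower code numbers, and these overlapped. Between day 6 and day 1 the change was -0.15 (adjusted p = 0.416) within the higher code numbers and -0.997 (adjusted p = 0.00578) within the lower ones, and the difference of these changes was 0.85 ± 0.21 (adjusted p = 0.0406).

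WIF1 gave values in the same order, without passing. Its change between day 6 and day 1 was -0.09 (adjusted p = 0.607) within the higher code numbers and -0.68 (adjusted p = 0.0356) within the lower ones, and the difference was 0.59 ± 0.20 (adjusted p = 0.108). The corresponding changes were 0.20 and 0.53 for FZD5 (adjusted p = 0.320 and 0.0266), 0.40 and 0.13 for LRP5 (adjusted p = 0.0225 and 0.474) and 0.07 and 0.31 for LRP6 (adjusted p = 0.588 and 0.0291), given for higher and then lower code numbers; the differences did not pass for these 3 genes. Over all 17 members, 4 had an unadjusted p under 0.05 for this difference (DACT1, WIF1, LRP6 and WNT5A), and for WNT5A it was -0.32 ± 0.15 (adjusted p = 0.215). After adjustment it passed for 391 of all 11072 tested genes. The share of all genes at an unadjusted p under 0.05 is not given, so nothing particular to the members is read from the count. With the presence of W transcripts in place of code numbers, the change between day 6 and day 1 differed for 0 of 17 members, and for 0 of all tested genes, by limma, with 1 member (FZD3) at an unadjusted p under 0.05. All 9 member calls were kept when the HINTW level was a covariate. With the 11 libraries without W transcripts alone, 0 members passed by limma in any comparison, where 0.217% of all tested genes passed between day 6 and day 1 and 3 members had an unadjusted p under 0.05; DACT1 then stood at -0.42 (adjusted p = 0.275), WIF1 at -0.30 (adjusted p = 0.393) and FZD5 at 0.26 (adjusted p = 0.391).

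**Figure D3:**
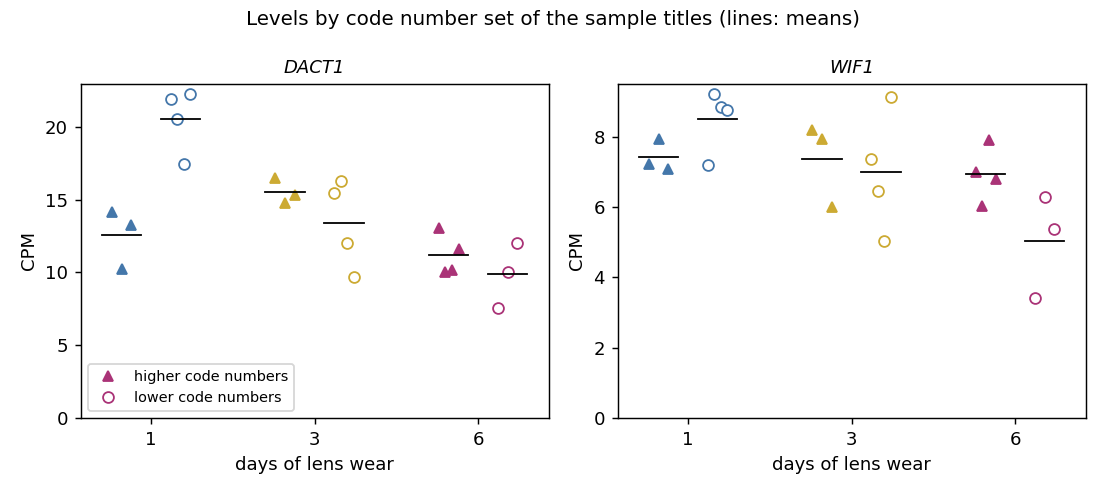
CPM of DACT1 and WIF1 by days of lens wear, with libraries of higher code numbers (triangles) left of those of lower code numbers (circles) and lines at the means. On day 1 the 3 triangles of DACT1 lie at 10.3 to 14.2 CPM, below the 4 circles at 17.4 to 22.2 CPM, and on day 6 the sets overlap.

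AXIN1, the scaffold of the beta-catenin destruction complex, had its lowest, median and highest libraries at 3.98, 4.26 and 4.99 CPM on day 1, at 3.64, 3.92 and 5.18 CPM on day 3 and at 4.56, 4.98 and 6.88 CPM on day 6. All 7 day 6 libraries were above the mean of either earlier day, and the ranges overlapped. The changes were 0.23 ± 0.08 between day 6 and day 3 (adjusted p = 0.0468) and 0.22 ± 0.08 between day 6 and day 1 (adjusted p = 0.0465), both just past the threshold. The first call survived the loss of a library only for day 1 replicate 4, day 3 replicates 4, 6 and 7 and day 6 replicate 2, and ended in the other 16 of 21 cases (adjusted p up to 0.103). The second survived for day 1 replicate 4, day 3 replicates 2 to 7 and day 6 replicate 2, and ended in 13 of 21 (adjusted p up to 0.109). Neither passed under median-ratio scaling (0.16, adjusted p = 0.154, and 0.15, adjusted p = 0.171). AXIN1 is listed at chr14:12551047-12629126 on the plus strand.

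AXIN2, a homologue of AXIN1 and a widely used readout of beta-catenin activity, averaged 1.59 ± 0.1501, 1.73 ± 0.226 and 1.82 ± 0.345 CPM on days 1, 3 and 6 (SD, n = 7). Its change of 0.11 ± 0.07 between day 6 and day 1 did not pass (adjusted p = 0.247). DACT2, the paralogue of DACT1, averaged 10.8 ± 1.06, 9.93 ± 1.07 and 10.9 ± 1.07 CPM and did not pass either, with a change of 0.01 ± 0.07 between day 6 and day 1 (adjusted p = 0.920).

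**Figure D4:**
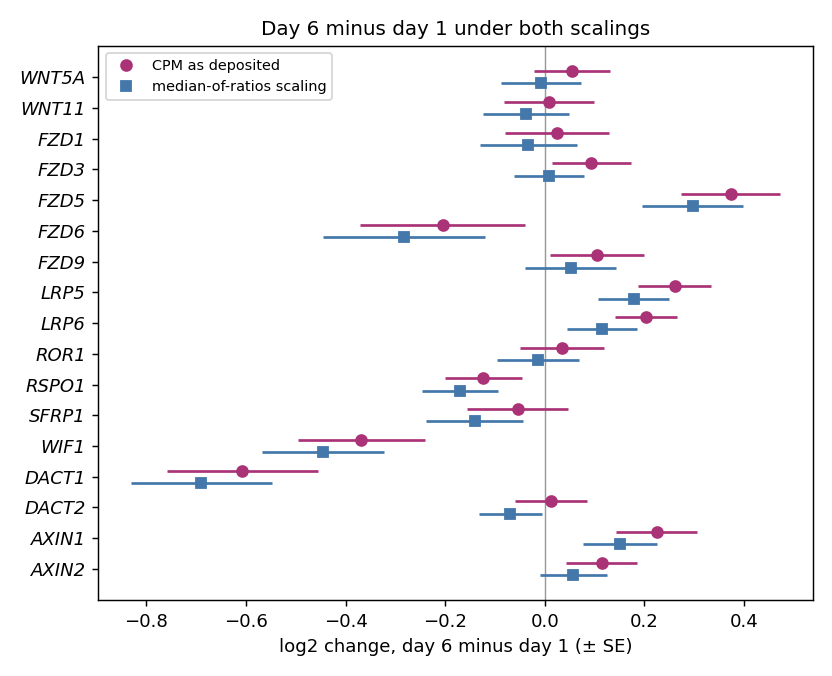
Log2 change between day 6 and day 1 with its SE for the 17 tested members, on CPM as deposited (circles) and after median-ratio scaling (squares). Every square lies to the left of its circle: DACT1 moves to -0.69 and WIF1 to -0.45, further from 0, and FZD5 to 0.30, LRP5 to 0.18, LRP6 to 0.12 and AXIN1 to 0.15, nearer to 0.

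The 22 members below the filter were fitted without it as an alternative, over 18630 genes, in which 14.2% of genes passed between day 6 and day 1 and 13% between day 6 and day 3. FZD4, FZD7, RSPO4 and SFRP2 are described because they passed there in some comparison, a choice made after their values were seen. Of the 22 members, 15 were below 1 CPM in each library and 8 had a median under 3 estimated reads.

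FZD4, the receptor of norrin in the retinal vessels of mice and humans, fell. Its lowest, median and highest libraries stood at 0.520, 0.975 and 1.23 CPM on day 1, at 0.761, 0.918 and 1.21 CPM on day 3 and at 0.417, 0.582 and 0.691 CPM on day 6. Every day 6 library lay below every day 3 library, and these days did not overlap in either direction for 3.62% of all genes fitted. The change was -0.29 ± 0.07 between day 6 and day 3 (adjusted p = 0.00831) and -0.26 ± 0.07 between day 6 and day 1 (adjusted p = 0.0166). Libraries held 17 to 50 estimated reads of it. FZD4 is listed at chr1:190012922-190017371 on the plus strand.

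FZD7, a receptor of the beta-catenin branch in many progenitor cells, rose. Its lowest, median and highest libraries stood at 0.253, 0.381 and 0.589 CPM on day 1, at 0.236, 0.605 and 0.812 CPM on day 3 and at 0.580, 0.783 and 1.058 CPM on day 6. The day 6 mean was 2.09 times that of day 1, with the lowest day 6 library just under the highest of day 1. The change was 0.38 ± 0.08 between day 6 and day 1 (adjusted p = 0.00371). FZD7 is listed at chr7:11682406-11685457 on the plus strand.

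RSPO4, known in humans for nail growth, had 0.161 to 0.381 CPM on day 1, 0.140 to 0.422 CPM on day 3 and 0.0245 to 0.194 CPM on day 6. Mean CPM of RSPO4 on day 6 was 0.434 times that of day 3. It fell by 0.19 on the log2(CPM + 1) scale between day 6 and day 3 (limma, adjusted p = 0.0150), with 1 to 13 estimated reads a library. With a pseudocount of 0.1 in place of 1 the change was -0.81. Between day 6 and day 1 RSPO4 changed by -0.12 with a pseudocount of 1, which did not pass (limma, adjusted p = 0.104). SFRP2, a decoy related to SFRP1, averaged 0.769 ± 0.347, 0.368 ± 0.0348 and 0.494 ± 0.191 CPM on days 1, 3 and 6 and passed the F test over days (adjusted p = 0.0425, where 17.2% of all genes fitted passed) without passing in a pairwise comparison. Day 3 libraries of SFRP2 lay close together, at 0.310 to 0.413 CPM, where those of day 1 spread from 0.340 to 1.41 CPM.

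**Figure D5:**
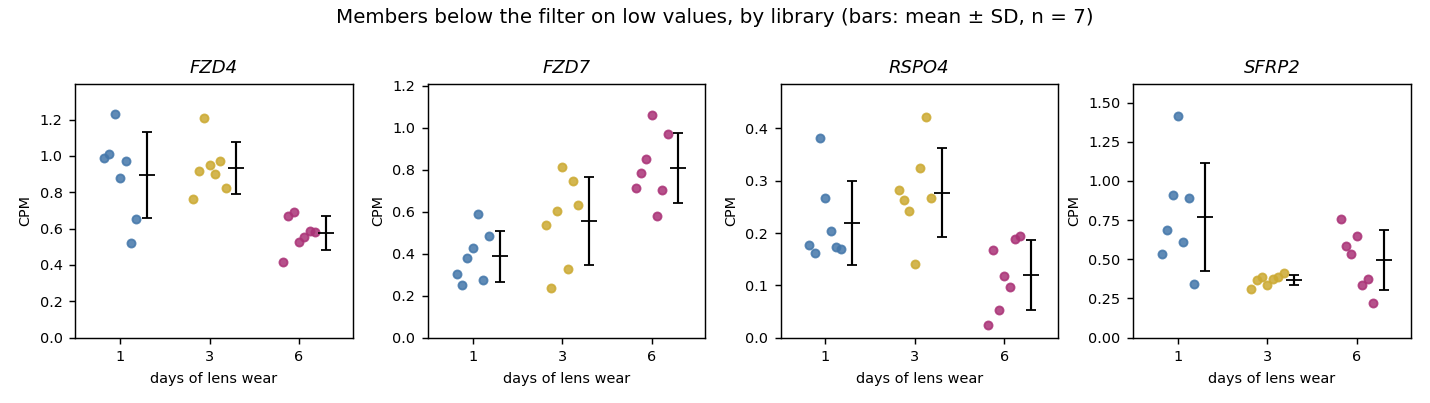
CPM of FZD4, FZD7, RSPO4 and SFRP2, members below the filter, by days of lens wear; points are libraries, and bars give the mean ± SD of 7 libraries a day. FZD4 and RSPO4 were lowest on day 6, FZD7 was highest on day 6 at a mean of 0.808 CPM, and SFRP2 was lowest on day 3 at a mean of 0.368 CPM.

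Among other genes of the pathway, from a list of 81 symbols of which 69 were in the table and 52 were tested, 17 were higher and 1 lower between day 6 and day 3, 11 higher and 0 lower between day 6 and day 1, and 0 higher and 1 lower between day 3 and day 1. Over all tested genes the shares were 19.4% higher and 3.44% lower between day 6 and day 3, 19.8% higher and 4.46% lower between day 6 and day 1, and 3.31% in either direction between day 3 and day 1. The list's median change was 0.12 between day 6 and day 3, beside 0.08 over all tested genes, and 0.12 between day 6 and day 1, beside 0.08. Under median-ratio scaling 7 were higher and 1 lower between day 6 and day 3, and 5 higher and 3 lower between day 6 and day 1, beside 946 and 874, and 936 and 989, of all 11072 genes. Counts by role and changes of single pathway genes from here on are on CPM as deposited. Which of these genes passed under median-ratio scaling is not given, so their rises may depend on the scaling. Of 12 tested planar cell polarity genes 6 were higher between day 6 and day 3, with a median change of 0.27, and 4 between day 6 and day 1, with a median of 0.18. The medians over all tested genes were 0.08 in both comparisons, and whether the group differs from other genes was not tested. CELSR1, a polarity cadherin, averaged 6.82 ± 0.805 CPM on day 6 and 4.71 ± 0.282 CPM on day 3, a change of 0.45 ± 0.07 (adjusted p = 0.000222). VANGL1, a membrane protein of the same system, changed by 0.48 ± 0.09 between those days (adjusted p = 0.000826), and DAAM2, a formin that binds Dishevelled, by 0.45 ± 0.07 between day 6 and day 1 (adjusted p = 0.000238).

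In the scaffold and destruction complex 7 of 17 tested genes were higher and 1 lower between day 6 and day 3, and 3 were higher between day 6 and day 1, beside the shares of 19.4% higher and 3.44% lower, and 19.8% higher, over all tested genes. CSNK1E, a casein kinase that acts on Dishevelled, averaged 5.03 ± 0.572, 3.85 ± 0.388 and 5.82 ± 0.735 CPM on days 1, 3 and 6. It fell between day 3 and day 1 by 0.31 on the log2 scale (adjusted p = 0.0175) and rose between day 6 and day 3 by 0.49 (adjusted p = 0.000201). CSNK1G2, a casein kinase of the LRP6 tail, changed by 0.33 between day 6 and day 3 (adjusted p = 0.00143) and BTRC, the ubiquitin ligase subunit that recognises beta-catenin, by 0.27 between day 6 and day 1 (adjusted p = 0.00786). APC, a tumour suppressor and scaffold of the complex, averaged 492 ± 71.7 CPM on day 6 and 621 ± 59.96 CPM on day 3, a change of -0.34 ± 0.09 (adjusted p = 0.00908).

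Among nuclear effectors 3 of 8 tested genes were higher between day 6 and day 3 and 1 between day 6 and day 1, beside 19.4 and 19.8% of all tested genes. PYGO1, a cofactor of beta-catenin, changed by 0.43 ± 0.08 between day 6 and day 1 (adjusted p = 0.00109), and BCL9L, which links it to beta-catenin, by 0.42 between day 6 and day 3 (adjusted p = 0.0258). LGR5, a receptor of R-spondins, was the member of its list of 3 tested genes that passed, with 25.3 ± 2.08 CPM on day 6 and 21.4 ± 1.44 CPM on day 1 (change 0.23, adjusted p = 0.0197). Among 8 tested genes of secretion and extracellular binding, GPC4, a glypican, changed by 0.23 between day 6 and day 3 (adjusted p = 0.0182) and IGFBP4, a secreted binding protein, by 0.52 between day 6 and day 1 (adjusted p = 0.0369). Of 4 tested textbook target genes, CCND1, the cell cycle regulator cyclin D1, was higher between day 6 and day 1 by 0.24 (adjusted p = 0.0324).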

How the data were processed

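The authors deposited a table of CPM for 21 retinal libraries with 0.0001 added to each value, which was subtracted. Per the labels' protocols, total RNA was depleted of ribosomal RNA and made into stranded libraries. The build was GRCg6a and the tools STAR and Partek, per the submitters' processing notes; no source used here gives versions or the strand setting. Listed genes sum to 30.3 to 33.3% of a library's CPM total. Low values fell on whole steps (tolerance 0.1) in 94.2 to 95.1% of cases, too few to treat them as counts, so no count test was run.

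Tests used limma 3.58.1 in R 4.3.3 on log2(CPM + 1), all 21 libraries with 1 mean per day, the 11072 genes averaging 1 CPM or more, and Benjamini-Hochberg adjustment at 0.05. Members that passed a pairwise comparison or the F test are given in full. The other members are given by their levels, or for some ligands below the filter by name only. Other pathway genes named are among the 2 with the lowest adjusted p per role and direction in a pairwise comparison. Members and lists were chosen with earlier results of these data known. Chromosome numbers were assigned from RefSeq symbols, and whether coordinates start at 0 or 1 is not given. Alternatives were another pseudocount (0.1), other filters (none, or 5 CPM), median-ratio scaling, and covariates for HINTW, code number and code letter. Further ones were subsets of libraries, limma's variance moderation with its trend and robust options on, and leaving out each library. In the main fit the variance was moderated with these options off. The procedure was tested on simulated data. Other software was pandas 2.3.3 and numpy 2.4.6 under Python 3.11.15, with matplotlib 3.10.9 for figures.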

Additional observations from a re-analysis of the deposited data

Results flagged for a closer look

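For DACT1 the change between day 6 and day 1 differed between libraries of higher and lower code numbers by 0.85 ± 0.21 (SE) on the log2 scale, by a test of the difference itself (limma, adjusted p = 0.0406). This test passed for 391 of 11072 genes.

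AXIN1 had a library far from the others on 2 days. On day 1 replicate 4 stood at 4.99 CPM with the next library at 4.39 CPM, a gap of 0.596 of the day's range. On day 6 replicate 7 stood at 6.88 CPM with the next at 5.37 CPM, a gap of 0.653 of the range. Of 51 groups of 17 tested members and 3 days, 2 stood out in this way, and chance alone gives about 1 in 20.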

How the results depend on the processing

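Over 9 pairwise calls of single members and 112 alternatives other than leaving out a library, 72 kept the call, 40 lost it and 0 reversed direction. With libraries free of W transcripts only (3, 6 and 2 of 7 on days 1, 3 and 6), 0 members passed by limma in each comparison. In each pairwise comparison 3 had an unadjusted p under 0.05, and 5 did for the F test. Of all tested genes, 1.13% then passed between day 3 and day 1, 0.822% between day 6 and day 3 and 0.217% between day 6 and day 1. The F test passed for 1.89%. Between day 6 and day 3, 3 members passed, where 22.8% of all tested genes did. With a mean of at least 5 CPM, 0 of 8 passed by limma (3 unadjusted), where 28.8% of all tested genes did. WNT5A, FZD5 and AXIN1 are then not tested. With lower code numbers only 1 passed (7.59% of all tested genes), and with higher ones only 0 by limma (3.87%, 4 members unadjusted). Between day 6 and day 1, 6 passed (24.3% of all tested genes). Under median-ratio scaling 3 passed (17.4%), and with higher code numbers only 1 did (11.9%). For the F test, 6 passed (29.7% of all tested genes), against 3 of 8 with a mean of at least 5 CPM (37.1%). Under median-ratio scaling 3 passed (23.1%), with lower code numbers only 3 (16.4%) and with higher ones only 1 (12.8%). With the code letter as a covariate 2 passed between day 6 and day 3 (21.9% of all tested genes) and 5 between day 6 and day 1 (24%). The F test then passed for 4 (28.6%). Without the filter 39 members were fitted in place of 17. Then 4 passed between day 6 and day 3 (13% of all genes fitted) and 9 for the F test (17.2%). Leaving out the filter and using a pseudocount of 0.1 was an alternative chosen after seeing the data. Of 39 members 0 then passed between day 3 and day 1 (1.12% of all genes fitted) and 4 between day 6 and day 3 (10.8%). Between day 6 and day 1, 5 passed (11.8%), and for the F test 7 did (14%).

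Leaving out each library in turn gave 0 to 1 member between day 3 and day 1 (1 without day 1 replicate 3). Between day 6 and day 3 it gave 2 to 4, and between day 6 and day 1 it gave 3 to 6 (3 without day 1 replicate 2). For the F test it gave 3 to 6 (3 without day 6 replicate 5). The shares of all tested genes in these fits are not given, so no shift is read as particular to the members. DACT1, FZD5, LRP5 and WNT5A kept their calls in all 21. No paired analysis was possible because replicate numbers follow accession order and the code numbers of the labels are not shared between days. For 8 members below the filter, a median under 3 estimated reads a library limits the precision. The causes of these shifts were not tested.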

Other observations

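Summed over all 39 members, libraries held 157 to 181 CPM on day 1, 146 to 184 CPM on day 3 and 162 to 186 CPM on day 6, so the days overlapped in the total. Of the 39 members, 10 overlap another listed gene, 3 of them among those tested (FZD5, DACT2 and LRP6). FZD5 shares its strand with the gene it lies in, and SULT and LOC101751329 lie opposite DACT2 and LRP6 with means of 0.409 and 0.296 CPM. Whether reads were counted by strand is not given, so the values of members that overlap another gene, below the filter too, are uncertain.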
